A study of Homo sapiens with 12 samples.

Results

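The cytosolic ribosome of human cells is built from ribosomal RNA and a fixed set of proteins, and the genes of these proteins are described here. They were taken as the genes whose platform symbol is RPL or RPS followed by a number, with an optional A, AL, L, X or Y type suffix, together with RPLP0, RPLP1, RPLP2 and RPSA, leaving out pseudogenes and the RPS6K kinases. By this rule 61 genes of 19775 had a probe set (short probes that together read 1 transcript) that carries their symbol alone, 39 of the large and 22 of the small subunit. Of these 61 genes 9 are paralogs, gene copies that encode a close relative of a main ribosomal protein. Each gene was read from its brightest such probe set over all arrays, and 59 genes (38 large, 21 small) were bright enough to be tested, against 13067 genes in all.

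Total RNA was hybridised to 12 Affymetrix arrays. It came from HEK cells, which derive from human embryonic kidney and here carry a TRPM7 transgene under a tetracycline switch. TRPM7 is a membrane ion channel fused to a kinase. The 4 groups of 3 arrays each were the line with the WT channel given 1 ug of tetracycline for 72 hours, the same line untreated, a line whose channel lacks the kinase domain given the same tetracycline, and that mutant line untreated. The series design describes the mutant channel as nonfunctional and the line as the control for the inducer, and all 4 groups grew with 5 ug/mL blasticidin. Whether each line is a single clone, and whether replicate arrays stand for separate cultures, is not given in the sources used here, so the p-values reflect the spread among these arrays, which may be technical.

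Ribosomal proteins are made in near equal amounts and assembled with ribosomal RNA in the nucleolus, and copies that find no place in a ribosome are degraded. Most of their mRNAs are among the most abundant of a growing cell and begin with a terminal oligopyrimidine (TOP) tract, a C at the cap followed by a run of C and T, through which the mTOR kinase and the RNA-binding protein LARP1 control their translation and storage. A change in the translation of such mRNAs need not be seen in their level, and the level is what these arrays measure.

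The start of the gene is shown for the members on which the results below turn and for paralogs beside their main copy. Each line gives 15 bases before and 15 bases from the annotated start, 5′ to 3′ on the strand of the gene, from RefSeq on GRCh38.p14. Capitals mark the C at the start with the run of C and T that follows it.
RPL12, chr9:127451392-127451421, minus strand: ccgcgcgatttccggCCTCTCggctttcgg
RPS12, chr6:132814554-132814583, plus strand: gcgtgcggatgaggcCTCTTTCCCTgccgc
RPL38, chr17:74203663-74203692, plus strand: aacggaagtctcgttCTTTTTCgtcctttt
RPL22, chr1:6199581-6199610, minus strand: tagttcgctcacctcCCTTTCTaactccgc
RPL22L1, chr3:170870181-170870210, minus strand: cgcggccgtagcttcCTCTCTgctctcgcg
RPS27, chr1:153990747-153990776, plus strand: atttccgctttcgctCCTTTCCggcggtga
RPS27L, chr15:63157463-63157492, minus strand: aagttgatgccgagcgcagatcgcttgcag
RPL10L, chr14:46651767-46651796, minus strand: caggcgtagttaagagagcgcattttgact

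The first 6 of these starts, RPL22L1 included, have a C followed by at least 4 bases that are each C or T, and the paralogs RPS27L and RPL10L do not. Counted over every annotated start of a gene on its own strand, 36 of the 53 member genes found in the RefSeq promoter table (67.9%) had such a start, against 1404 of all 27305 genes of the table (5.14%). Among the main copies 34 of 46 (73.9%) had it, and among the paralogs 2 of 7 (28.6%). A match describes letters at an annotated position and not the start used in these cells.

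Read from the brightest probe set of each gene, most members were among the brightest features of the arrays. Signals are given as log2 of the MAS5 signal, a fluorescence intensity. In the deposited values the mean after trimming 2% at each end was 500.1 on every array, so the arrays share a common scale, and how MAS5 was set to give it is not given in the sources used here. Of the 59 tested genes 50 had a mean over 14 and all 50 lay in the top 1% of probe sets, and 44 had a mean over 15. Taking the brightest probe set favours such counts. Of the 53 further tested probe sets of these genes 34 had a mean of 14 or less. The brightest was RPS19, a small subunit protein mutated in Diamond-Blackfan anemia, with a mean of 15.78. At the other end RPL36A read 6.78, RPLP2 7.64, RPL10L 7.78, RPL27A 9.98, RPL39L 10.33 and RPL22L1 11.27. Brighter probe sets of RPL36A, RPLP2 and RPL27A carry several gene symbols and were not used, and the brightness of different probe sets is not a measure of relative mRNA abundance. RPL3L, a paralog of striated muscle, averaged 4.55 and was too dim to be tested, as was the Y-linked RPS4Y1.

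**Figure D1:**
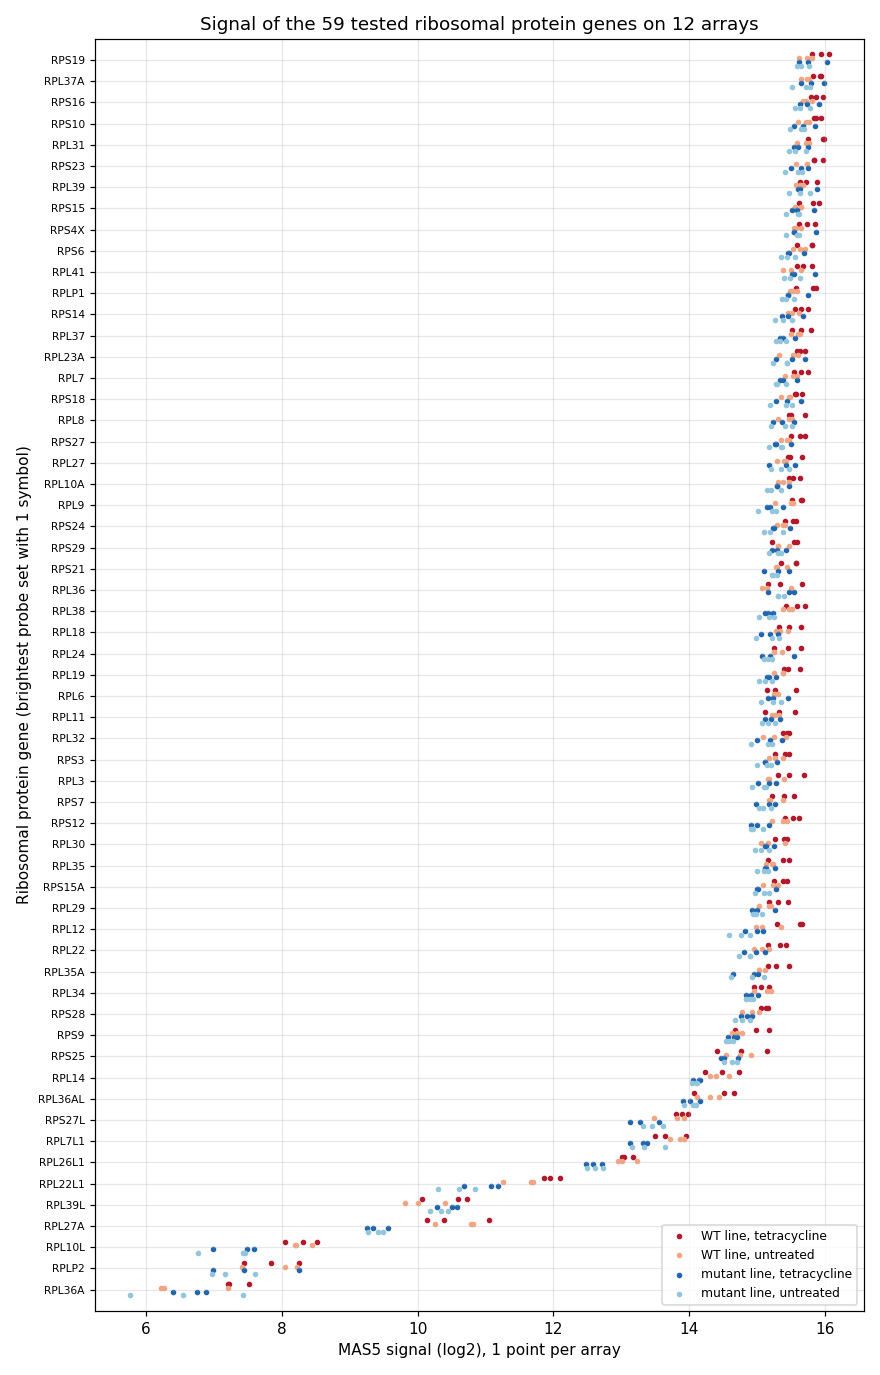
MAS5 signal (log2, horizontal axis) of the 59 tested ribosomal protein genes (vertical axis, by mean signal) on each of 12 arrays, 1 point per array, coloured by group. From RPS19 (mean 15.78) down, 50 genes lie above 14 with narrow spread, and RPL22L1, RPL27A and RPL10L show the WT line arrays to the right of the mutant line arrays.

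Not every ribosomal protein could be read. Of 77 main ribosomal protein symbols 52 had a probe set of their own, and 15, among them RPL5, RPL10, RPS2 and RPS3A, had only probe sets shared with other symbols. The other 10, which include RPLP0, RPS27A and RPSA, were not analysed here. The 61 tested probe sets shared with other symbols had a median log2 change of 0.152 with tetracycline in the WT line. There 1 was called higher and 1 lower, against 7.83% and 9.11% of all tested probe sets. Between the treated lines 13 of the 61 were higher in the WT line and 2 lower, against 10.2% and 17.3%. Between the untreated lines 1 was higher and 1 lower, against 4.19% and 8.7%. Of the 59 members' probe sets 30 end in _s_at and 14 in _x_at, the maker's marks for probes that can match related transcripts, so near-identical copies and pseudogene transcripts may add to the signals of these 44.

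A few facts of the arrays bear on every comparison. The targeted gene does not check the tetracycline labels, since the brightest TRPM7 probe set read 8.19, 7.79 and 6.88 in the WT line with tetracycline and 8.68, 8.12 and 8.60 in that line untreated, against 8.53, 8.04 and 7.99 in the mutant line with tetracycline and 8.45, 8.47 and 8.25 untreated. The log2 ratio of 3′ to 5′ beta-actin control signal, a sign of RNA quality, averaged 1.05 ± 0.27 on WT line arrays and 0.259 ± 0.026 on mutant line arrays (SD, n = 6 each), and the 18S ribosomal RNA control averaged 8.73 ± 0.71 and 6.95 ± 0.55. The median of all 29553 tested probe sets lay between 8.54 and 8.60 on WT line arrays and between 8.75 and 8.82 on mutant line arrays. Line and RNA quality cannot be told apart, and in bulk RNA fewer cells of a type cannot be told apart from less RNA per cell. Of the HEK markers 7 of 8 matched genes were tested, 5 of them with a mean over 10 (VIM 15.1), and of 14 matched markers of blood, vessel, fibroblast and liver cells 3 were tested and 0 had a mean over 10. COL1A1, the brightest of those 3, rose with tetracycline in the WT line by 0.88 ± 0.196 (SE, limma adjusted p = 0.00748) and was higher in the WT line by 0.64 ± 0.196 with tetracycline (adjusted p = 0.0262). Of the HEK markers VIM rose with tetracycline in the WT line by 0.65 ± 0.103 (adjusted p = 0.00107) and was higher there than in the treated mutant line by 0.29 ± 0.103 (adjusted p = 0.0479). KRT8 differed between the lines by -0.96 ± 0.176 with tetracycline (adjusted p = 0.00159) and by -1.14 ± 0.176 untreated (adjusted p = 0.00142). The part of these markers in the results was not tested.

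The comparison of the WT line with and without tetracycline asks what the inducer and the functional channel changed together. Of the 59 ribosomal protein mRNAs only RPL12 passed the test, as a rise with tetracycline. Calls were made at an adjusted p under 0.05 (Benjamini-Hochberg) in 1 limma fit over all tested probe sets, of which 16.9% were called in either direction, 7.83% higher and 9.11% lower. Of the 59 genes 1 rose and 0 fell, and 55 had a positive value, where 51.7% of all tested probe sets had one. The median log2 change was 0.157, or 1.11-fold, against 0.0234 over all tested probe sets, and it became 0.0076 with quantile normalization. The large and small subunits had near identical medians, 0.158 over 38 genes and 0.157 over 21.

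RPL12, which sits at the base of the stalk where elongation factors bind, read 15.29, 15.64 and 15.66 in the WT line with tetracycline, against 15.07, 15.35 and 14.98 untreated. The lowest treated array lay below the highest untreated one, so the groups overlapped. The change was 0.40 ± 0.127 (SE, n = 3 arrays per group, limma adjusted p = 0.0439), or 1.32-fold. A second RPL12 probe set read 15.19, 15.52 and 15.53 with tetracycline, against 14.89, 15.14 and 14.88 untreated. Its groups did not overlap, and it rose by 0.44 ± 0.108 (SE, adjusted p = 0.013). The call on the brighter probe set was lost in 13 of 24 alternative settings, 8 of which leave out 1 array. Without WT tetracycline replicate 1, whose members were the dimmest of its group, 7 of the 59 genes were called higher, and 0 without either of the other 2 WT tetracycline arrays.

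The next 7 members by p-value did not pass. RPL22L1 gave 0.43 ± 0.177 (SE, limma adjusted p = 0.113), with 11.87, 11.96 and 12.09 in the treated WT line, all above 11.68, 11.70 and 11.27 in the untreated one. The others gave log2 values of 0.25 for RPL3, a protein close to the peptidyl transferase centre, 0.24 for RPL22 and RPS9, 0.21 for RPS28 and RPL31 and 0.20 for RPS23, a protein of the decoding centre, with adjusted p between 0.124 and 0.159. The groups did not overlap, with tetracycline higher, for 13 of the 59 genes and lower for 0, where 13.7% of all tested probe sets were higher and 13% lower without overlap. The 4 negative values were those of RPL7L1 (-0.14), RPL27A (-0.093), RPLP2 (-0.049) and RPL34 (-0.040). RPS6, the substrate of the S6 kinases, gave 0.11 ± 0.0957 (adjusted p = 0.449). RPL11, which binds MDM2 together with RPL5 and 5S RNA, gave 0.064 ± 0.106 (adjusted p = 0.722). The stalk protein RPLP1 gave 0.22 ± 0.103 (adjusted p = 0.16).

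The small upward move was shared by other bright probe sets and differed between arrays of a group. The median of the members was 15.31, 15.46 and 15.62 on the 3 WT arrays with tetracycline, against 15.31, 15.40 and 15.25 on the untreated ones. It was 15.17, 15.34 and 15.15 on mutant line arrays with tetracycline, against 15.18, 15.23 and 15.03 untreated. In both lines the groups overlapped. Over the 50 members with a mean above 14 the median change in the WT line was 0.160, and over the 302 other tested probe sets above 14 it was 0.104. Whether signals this bright still follow the amount of mRNA linearly was not tested. The highest signal of an array ranged from 52103 to 76060. The deposited values share a common scale, so these maxima cannot show whether an upper limit of the scanner was reached.

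**Figure D2:**
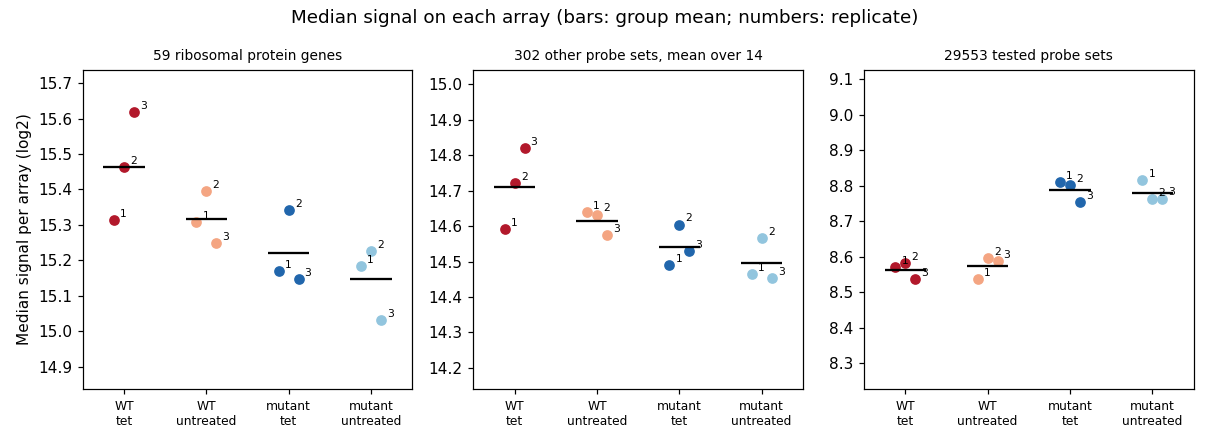
Median log2 MAS5 signal on each array (vertical axes, each panel with its own range of equal height) for the 59 ribosomal protein genes, 302 other bright probe sets and all 29553 tested probe sets, by group, with bars at group means. The members' medians run from 15.31 to 15.62 on WT tetracycline arrays and overlap the untreated ones, while the median of all tested probe sets is lower on every WT line array than on any mutant line array.

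In the mutant line tetracycline changed no member past the threshold, and it changed no other probe set past it either (0% of 29553 called by limma, 620 with an unadjusted p under 0.05). Of the 59 genes 53 had a positive value. The median was 0.0769, or 1.05-fold, against 0.0021 over all tested probe sets, and it turned to -0.0078 with quantile normalization. RPL22L1 was the 1 member with an unadjusted p under 0.05. It read 10.68, 11.08 and 11.18 with tetracycline, against 10.30, 10.61 and 10.85 in the untreated mutant line, groups that overlapped, for a change of 0.40 ± 0.177 (SE, adjusted p = 1). RPL12 gave 0.23 ± 0.127, RPL37A 0.13, RPL22 0.13, RPS19 0.13, RPL41 0.13, RPL10A 0.12 and RPS16 0.11. Groups without overlap were found for 0 of the 59 genes, where 6.86% of all tested probe sets were higher and 6.39% lower without overlap.

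The difference between the inductions, WT minus mutant, passed for none of the 59 genes, where 0.139% of all tested probe sets were called, 0.0643% higher and 0.0744% lower. None had an unadjusted limma p under 0.05. The median difference was 0.0789 with 52 positive values, and it turned to -0.0070 without the arrays numbered 3. The smallest adjusted p was that of RPS27L, a p53 target gene, with 0.30 ± 0.192 (SE, adjusted p = 0.514). Next came RPL35A with 0.25, RPS9 with 0.19, RPL31 with 0.16, RPS27 with 0.15, RPS28 with 0.14 and RPS23 with 0.13. RPL36A, one of the dimmest members, gave 0.66 ± 0.589 (adjusted p = 0.652). RPL12 gave 0.17 ± 0.179 (adjusted p = 0.709), so its rise in the WT line was not shown to differ from its value in the mutant line.

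Dimmer probe sets of the same genes differed from the brightest ones. The 59 tested genes have 53 further tested probe sets, and with tetracycline in the WT line 2 of these rose and 8 fell, where 7.83% of all tested probe sets rose and 9.11% fell. The 8 that fell belong to 7 genes, RPL22, RPS28, RPS23, RPL31, RPL35A, RPS27L and RPS15A, whose brightest probe sets all had positive values. Of the 5 tested RPL22 probe sets 1 was called, the dimmest (221726_at), which read 12.06, 11.77 and 11.84 with tetracycline, against 12.97, 13.47 and 13.04 in the untreated WT line. The groups stood well apart and the change was -1.27 ± 0.134 (SE, limma adjusted p = 0.000144). The brightest (221775_x_at) read 15.16, 15.35 and 15.43 with tetracycline, against 15.07, 15.18 and 14.96 untreated. The other bright ones, 220960_x_at and 208768_x_at, gave 0.24 and 0.23, and the second dimmest, 214042_s_at, gave -0.29, and none of these passed. RPL22 is a large subunit protein that mice can lack without losing general protein synthesis.

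RPS28, a small protein near the mRNA exit of the small subunit, had 3 tested probe sets, of which 2 fell. Probe set 208903_at read 8.57, 7.74 and 7.56 in the WT line with tetracycline, against 9.79, 9.48 and 9.49 untreated, a change of -1.63 ± 0.230 (SE, limma adjusted p = 0.000522). Probe set 208902_s_at, near the dim end, gave -2.99 ± 0.558 (adjusted p = 0.00282). The brightest one, 208904_s_at, read 15.06, 15.14 and 15.16 with tetracycline, all above 14.93, 15.03 and 14.78 untreated, and gave 0.21 ± 0.092 (adjusted p = 0.14). For RPS23 the dimmer probe set fell by 0.78 ± 0.174 (SE, adjusted p = 0.00778), for RPL31 by 0.63, for RPL35A by 0.66, for RPS15A by 0.96 and for RPS27L by 1.26, the last 4 with adjusted p between 0.0139 and 0.0428.

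RPL37 went the other way. Its dimmer probe set 224767_at read 11.05, 12.65 and 12.70 in the WT line with tetracycline, against 10.25, 11.28 and 10.05 untreated, a rise of 1.60 ± 0.368 (SE, limma adjusted p = 0.00934) with overlapping groups. The brightest RPL37 probe set gave 0.075 ± 0.0926 (adjusted p = 0.617). Among the 34 further probe sets with a mean of 14 or less, 1 rose and 8 fell, to be read against the same shares. In the mutant line all 8 of the WT line's falling probe sets had negative values. For 7 of the 8 the treated arrays lay below the untreated ones without overlap, where 6.39% of all tested probe sets did. RPL22 (221726_at) gave -0.46 ± 0.134 there and RPS28 (208903_at) gave -0.71 ± 0.23 (SE). Of the 8 values 6 had an unadjusted limma p under 0.05, where 620 of the 29553 tested probe sets had one. After adjustment 0 passed. The 8 were picked by their fall in the WT line, and a shared response of the lines was not tested. The difference of the inductions for RPL22 (221726_at) was -0.81 (limma adjusted p = 0.0891). That adjusted p was the smallest over all member probe sets for this comparison, and it did not pass. Where these probes lie on the transcripts was not analysed here.

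**Figure D3:**
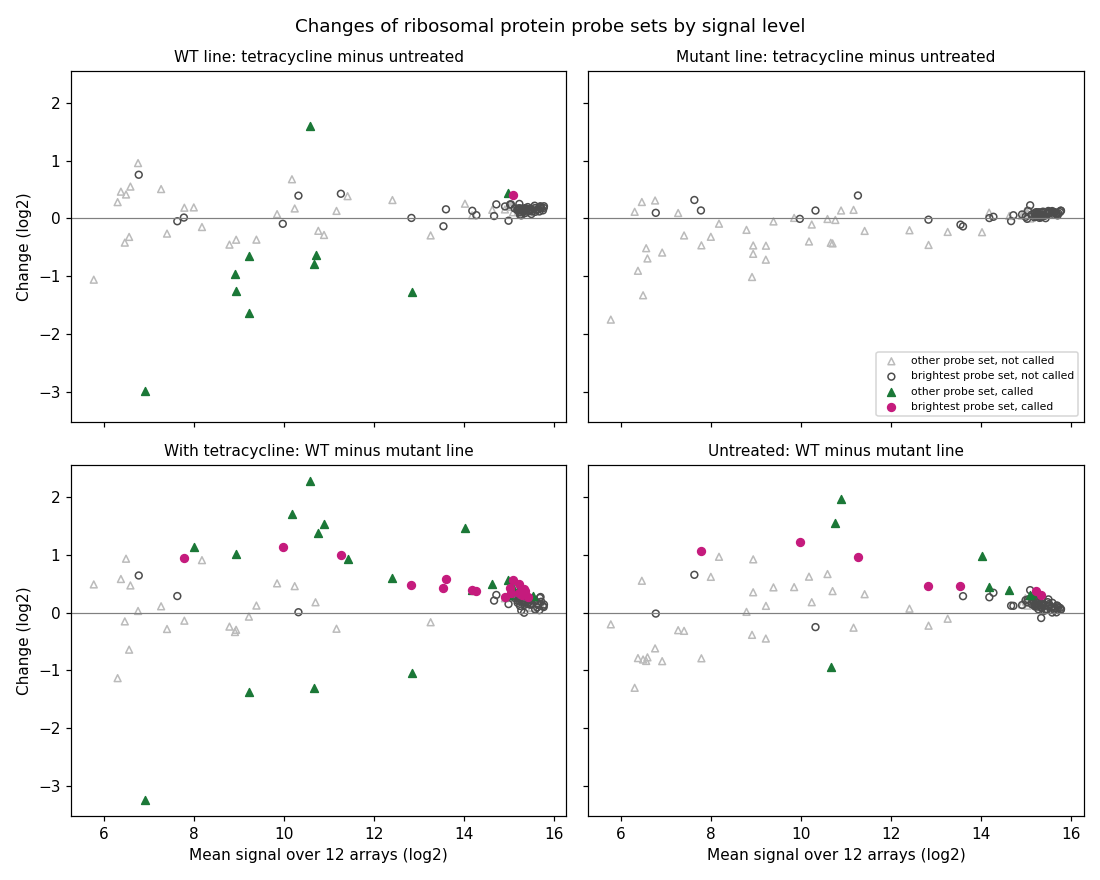
Log2 change (vertical axes) against mean log2 signal over 12 arrays (horizontal axes) for the 112 tested ribosomal protein probe sets, circles for the brightest of each gene and triangles for the others, filled where called. The bright circles gather just above 0 in all 4 comparisons, and the called triangles below 14 spread from -2.99 to 1.60 with tetracycline in the WT line.

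**Figure D4:**
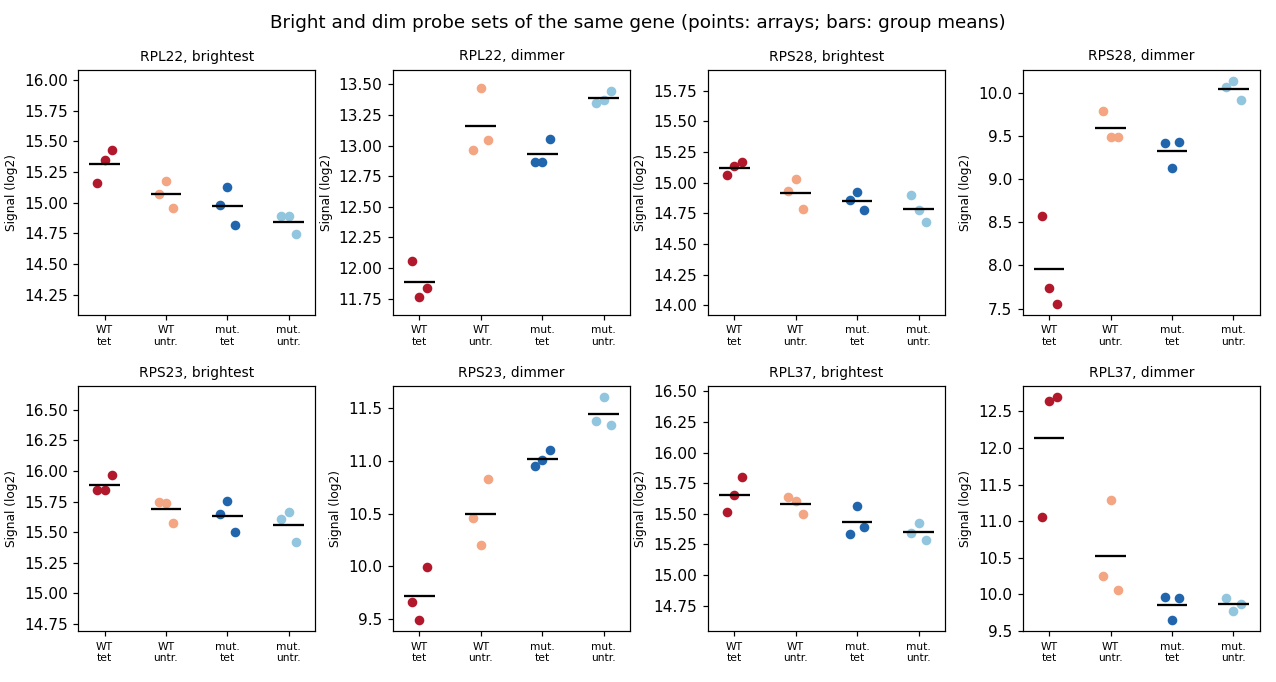
Log2 MAS5 signal on each array for the brightest and a dimmer probe set of RPL22, RPS28, RPS23 and RPL37, by group, with bars at group means and a vertical axis of its own in each panel. For RPL22 the dimmer probe set lies between 11.77 and 12.06 on WT tetracycline arrays and between 12.97 and 13.47 on untreated ones. The brightest has a slightly higher mean with tetracycline in the WT line, with overlapping groups, and was not called.

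The comparison of the lines with tetracycline shows what differs between cells carrying the WT and the mutant channel under the inducer. In the WT line 18 of the 59 genes were higher and 0 lower, where 27.6% of all tested probe sets were called in either direction, 10.2% higher and 17.3% lower. The members' median was 0.213, or 1.16-fold, against -0.103 over all tested probe sets, and 58 of the 59 values were positive. With each array centred on its median the all-probe-set value becomes 0.12 and the members' 0.44, with 51 members called, and with quantile normalization the members' median is 0.045 with 10 called. Of all calls 37.1% were higher as deposited, 64.7% after centring and 46.4% after quantile normalization. The 50 members above 14 had a median of 0.203 as deposited, and the 302 other probe sets above 14 had 0.137. Leaving out 1 array at a time gave 8 to 29 called members, with 29 without WT tetracycline replicate 1. The groups did not overlap, with the WT line higher, for 23 of 59 genes, where 16.7% of all tested probe sets were higher and 24.7% lower without overlap.

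The untreated lines answer whether the lines already differed without the inducer. Here 7 of the 59 genes were higher in the WT line and 0 lower, where 12.9% of all tested probe sets were called in either direction, 4.19% higher and 8.7% lower. The median was 0.136, or 1.10-fold, against -0.0916 over all tested probe sets. It was 0.34 with 35 members called after centring, and 0.034 with 4 called after quantile normalization. Of all calls 32.5% were higher as deposited, 68.0% after centring and 43.2% after quantile normalization. Leaving out 1 array at a time gave 3 to 9 called members. All 7 genes, RPL27A, RPL10L, RPL22L1, RPL7L1, RPL26L1, RPS12 and RPL38, were also among the 18 called with tetracycline. The 2 comparisons of the lines share no array, but they are not independent. Both use the same 2 lines with the same gap in RNA quality, and 1 spread per probe set from the same fit.

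The paralogs were called between the lines more often than the main copies, by count and not by a test of their own. With tetracycline 6 of the 7 tested paralogs were higher in the WT line, and 12 of the 52 main copies, where 10.2% of all tested probe sets were. Untreated, 4 of the 7 paralogs and 3 of the 52 main copies were higher, where 4.19% of all tested probe sets were. The paralogs are also dimmer, and the 9 members with a mean of 14 or less had a median difference of 0.58 with tetracycline and 0.45 untreated. Of these 9 genes 6 were called higher with tetracycline and 5 untreated, the main copy RPL27A among them both times. Paralogs were not told apart from dim members.

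RPL22L1 can take the place of RPL22 in the ribosome and is known in mice to rise when RPL22 is lost. It read 11.87, 11.96 and 12.09 in the WT line with tetracycline, against 10.68, 11.08 and 11.18 in the treated mutant line. Untreated it read 11.68, 11.70 and 11.27 in the WT line, against 10.30, 10.61 and 10.85 in the mutant line. Every WT line array lay above every mutant line array. The differences were 0.99 ± 0.177 with tetracycline (SE, limma adjusted p = 0.00134) and 0.96 ± 0.177 untreated (adjusted p = 0.00377), close to 1.99-fold and 1.94-fold. The main copy RPL22 differed by 0.34 ± 0.103 on its brightest probe set with tetracycline (adjusted p = 0.0258) and by -1.04 ± 0.134 on the dimmest one (adjusted p = 0.000201). Of the 5 tested RPL22 probe sets 2 were called higher between the treated lines, the other being 208768_x_at with 0.30 ± 0.104 (adjusted p = 0.0471), and 1 lower. RPS28 was likewise called in opposite directions, 0.27 ± 0.092 on the brightest probe set and -1.37 ± 0.230 on 208903_at. No other member was called both ways in any comparison.

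RPL10L is an intronless copy of RPL10 known for its role in mouse spermatogenesis. It read 8.05, 8.52 and 8.31 in the WT line with tetracycline, against 7.48, 6.98 and 7.59 in the treated mutant line. Untreated it read 8.19, 8.44 and 8.21 in the WT line, against 7.43, 7.45 and 6.76 in the mutant line. No arrays of the lines overlapped, and the WT line was higher by 0.94 ± 0.258 with tetracycline (SE, limma adjusted p = 0.0149) and by 1.06 ± 0.258 untreated (adjusted p = 0.0153). RPL10 itself has only shared probe sets, so whether this signal is separate from that of RPL10 transcripts was not tested.

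RPL26L1, a near-identical relative of RPL26, was higher by 0.48 ± 0.115 with tetracycline (SE, limma adjusted p = 0.00719) and by 0.45 ± 0.115 untreated (adjusted p = 0.0191). RPL7L1 was higher by 0.42 ± 0.14 with tetracycline (adjusted p = 0.0362) and by 0.45 ± 0.14 untreated (adjusted p = 0.0463), while RPL7 gave 0.21 and 0.18 and did not pass. RPS27L was higher by 0.58 ± 0.136 with tetracycline (adjusted p = 0.00673), with 13.99, 13.82 and 13.89 in the WT line against 13.13, 13.28 and 13.55 in the mutant line. Untreated it gave 0.28 ± 0.136 (adjusted p = 0.19) with overlapping groups. Its main copy RPS27 was higher by 0.27 ± 0.0926 with tetracycline (adjusted p = 0.0443) and gave 0.12 untreated. RPL36AL, an intronless copy of RPL36A, was higher by 0.39 ± 0.139 with tetracycline (adjusted p = 0.0489), with overlapping groups. The RPL7L1 call was lost in 11 of 24 alternative settings with tetracycline, 6 of which leave out 1 array, and in 14 of 24 untreated.

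RPL39L was the tested paralog that passed in neither comparison of the lines. This testis-enriched relative of RPL39 read 10.07, 10.60 and 10.73 in the WT line with tetracycline, against 10.29, 10.50 and 10.59 in the treated mutant line, a difference of 0.0051 ± 0.194 (SE, limma adjusted p = 0.988). Untreated it gave -0.25 ± 0.194 (adjusted p = 0.433). RPL39 gave 0.041 ± 0.101 with tetracycline and 0.0032 ± 0.101 untreated. RPS4X, the X-linked main copy of RPS4Y1, gave 0.088 ± 0.102 with tetracycline and 0.045 ± 0.102 untreated.

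**Figure D5:**
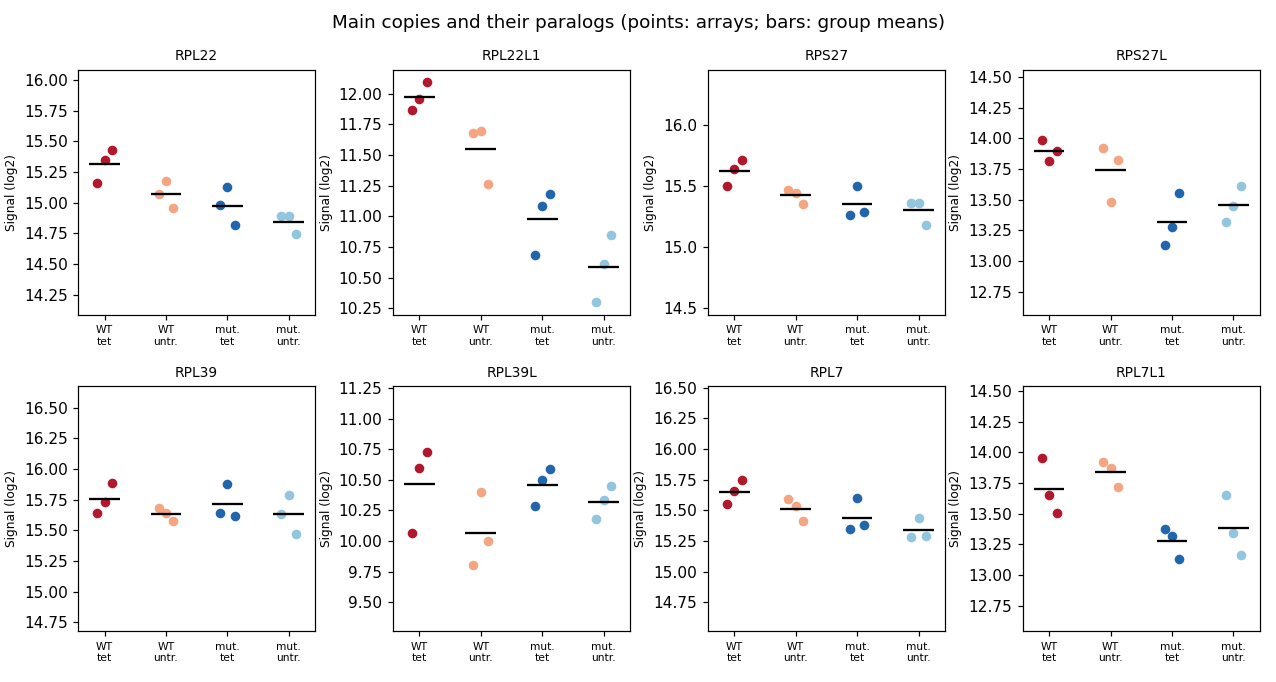
Log2 MAS5 signal on each array for 4 main copies and their paralogs, by group, with bars at group means and a vertical axis of its own in each panel. For RPL22L1 all WT line arrays (11.27 to 12.09) lie above all mutant line arrays (10.30 to 11.18), whereas the arrays of the lines overlap for RPL39 and RPL39L.

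Among the brightest probe sets of the main copies RPL27A had the widest gap between the lines. It read 10.13, 11.05 and 10.39 in the WT line with tetracycline, against 9.26, 9.56 and 9.34 in the treated mutant line. Untreated it read 10.82, 10.78 and 10.26 in the WT line, against 9.49, 9.27 and 9.41 in the mutant line. The lines did not overlap, and the differences were 1.14 ± 0.22 with tetracycline (SE, limma adjusted p = 0.00217), or 2.20-fold, and 1.22 ± 0.22 untreated (adjusted p = 0.00333), or 2.34-fold. This probe set is far dimmer than those of most ribosomal proteins, and the brighter RPL27A probe sets carry several symbols.

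RPS12, a protein of the small subunit head, read 15.42, 15.53 and 15.62 in the WT line with tetracycline, against 14.91, 15.18 and 15.01 in the treated mutant line. The groups did not overlap, and the difference was 0.49 ± 0.0963 (SE, limma adjusted p = 0.00234). Untreated it was 0.37 ± 0.0963 (adjusted p = 0.021). With the mean of its probe sets RPS12 gave 0.031 with tetracycline (adjusted p = 0.941), its only lost call among 24 alternatives there, and its other probe set averaged 3.98 and was too dim to be tested. RPL38, which in mice is needed for the translation of a subset of Hox mRNAs, was higher in the WT line by 0.41 ± 0.0926 with tetracycline (adjusted p = 0.0058) and by 0.30 ± 0.0926 untreated (adjusted p = 0.0452). A dimmer RPL38 probe set (202028_s_at) read 12.21, 11.83 and 11.70 in the untreated WT line, against 10.14, 10.10 and 9.64 in the untreated mutant line, a larger difference of 1.95 ± 0.262 (adjusted p = 0.000641). With tetracycline it gave 1.53 ± 0.262 (adjusted p = 0.00106). All 3 RPL38 probe sets were therefore called in the same direction in both comparisons.

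RPL12 was higher in the WT line by 0.56 ± 0.127 with tetracycline (SE, limma adjusted p = 0.00561), and untreated it gave 0.39 ± 0.127 (adjusted p = 0.0582). Read from the brightest probe sets, the other main copies called with tetracycline alone included RPL35A (0.43), whose gene is mutated in Diamond-Blackfan anemia. The rest were RPL9 (0.37), RPL14 (0.37), RPL3 (0.33), RPL19 (0.30), and RPL22, RPS27 and RPS28 above. A call with tetracycline and none untreated does not show that the line difference changed with tetracycline. That change, the difference of the inductions, passed for none of them. For RPL14 the list also depends on the probe set. A second one (213588_x_at), with a mean of 14.19 against 14.28, was called higher in both comparisons. It gave 0.39 ± 0.107 with tetracycline (SE, limma adjusted p = 0.0156) and 0.44 ± 0.107 untreated (adjusted p = 0.0166).

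Further probe sets between the lines ran mainly upward with exceptions. With tetracycline 16 of the 53 were higher in the WT line and 4 lower, where 10.2% of all tested probe sets were higher and 17.3% lower. Untreated 7 were higher and 1 lower, where the shares were 4.19% and 8.7%. The highest was RPL37 (224767_at) with 2.27 ± 0.368 (SE, limma adjusted p = 0.000746), and RPS9 (214317_x_at) gave 1.47 ± 0.245 (adjusted p = 0.000899). RPS23 (227722_at) read 9.66, 9.49 and 9.99 in the WT line with tetracycline, against 10.95, 11.01 and 11.10 in the treated mutant line, a difference of -1.31 ± 0.174 (adjusted p = 0.000228). It was the probe set that was lower untreated as well, by -0.95 ± 0.174 (adjusted p = 0.00377). Bright probe sets of a gene also differed in their calls. RPL24 (214143_x_at, mean 15.21), RPS7 (213941_x_at, 15.10) and RPL10A (200036_s_at, 14.64) were higher in the WT line in both comparisons. They gave 0.39, 0.42 and 0.49 with tetracycline and 0.33, 0.31 and 0.38 untreated (limma adjusted p between 0.00182 and 0.0471). The brightest probe sets of these genes passed in neither, so the genes called depend on the probe set read.

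Other genes around the ribosome were counted from lists of their own. Whether the counts of a list differ from the shares over all tested probe sets was not tested. Of 19 tested translation factors and other TOP mRNAs, EIF3F, a subunit of the initiation factor that scaffolds the small subunit, rose by 0.34 ± 0.105 with tetracycline in the WT line (SE, limma adjusted p = 0.0372), and EIF2S3, a subunit of the factor that brings the initiator tRNA, fell by 0.56 ± 0.16 (adjusted p = 0.026). The list's median was 0.121, against 0.0234 over all tested probe sets. Of 5 tested host genes of small nucleolar RNAs ZFAS1 rose by 0.84 ± 0.218 (adjusted p = 0.0176) and 0 fell. Of all tested probe sets 7.83% rose and 9.11% fell. Between the treated lines 3 of the 19 were higher in the WT line (HNRNPA1, EIF3F and EEF1D) and 1 lower (EIF2S3). Of the 5 host genes GAS5 (0.99) and EPB41L4A-AS1 (0.65) were higher. The shares over all tested probe sets were 10.2% higher and 17.3% lower. Untreated, 0 of the 19 and 0 of the 5 passed in either direction, where 12.9% of all tested probe sets did.

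Of 25 tested chaperones and assembly factors of ribosomal proteins 1 rose and 3 fell with tetracycline in the WT line. The shares over all tested probe sets were 7.83% and 9.11%. The list's median was -0.27, against 0.0234 over all tested probe sets. GRWD1, whose yeast relative is the chaperone of Rpl3, fell by 1.27 ± 0.318 (SE, limma adjusted p = 0.0144). HEATR3, which carries RPL5 to the nucleus, fell by 1.02 ± 0.262 (adjusted p = 0.0167), and BCCIP fell by 0.56 ± 0.159 (adjusted p = 0.0274). EFL1, a GTPase of late large subunit maturation, rose by 0.43 ± 0.126 (adjusted p = 0.0299). Between the treated lines 5 were higher in the WT line and 5 lower, where 10.2% of all tested probe sets were higher and 17.3% lower. Untreated 6 were higher and 0 lower, where the shares were 4.19% and 8.7%. These 6 were led by PDCD2, a chaperone of RPS2, with 1.22 ± 0.159 (limma adjusted p = 0.00054).

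Of 22 tested genes of S6 kinases and TOR signalling 3 rose and 1 fell with tetracycline in the WT line, beside 7.83% and 9.11% of all tested probe sets. EIF4EBP1, the repressor of cap-dependent initiation that mTOR inactivates, rose by 1.18 ± 0.133 (SE, limma adjusted p = 0.00018), SESN2 by 0.91 ± 0.178 (adjusted p = 0.00364) and DDIT4 by 0.75 ± 0.174 (adjusted p = 0.0096), both of which restrain mTOR complex 1. MLST8, a subunit of the mTOR complexes, fell by 0.89 ± 0.207 (adjusted p = 0.00968). Between the treated lines 4 were higher in the WT line and 2 lower, beside 10.2% and 17.3% of all tested probe sets. Untreated 3 were higher and 3 lower, beside 4.19% and 8.7%. In the mutant line and in the difference of the inductions 0 members of any of these 4 lists passed.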

How the data were processed

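Total RNA of stable HEK lines was hybridised to Affymetrix arrays, 1 per sample, in 4 groups of 3. The deposited values are MAS5 signals (per the submitters' processing notes), a linear intensity per probe set, and the version and settings are not given in the sources used here. No read depth applies, and the number of arrays limits the precision.

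Signals under 1 (2211 values) were set to 1 and log2 was taken. Of 54675 probe sets 62 controls were left out, and 29553 whose highest group mean exceeded the median of all values (6.39) were tested. Genes were named from GEO's platform annotation, by which 41091 probe sets carried 1 symbol, 1801 several and 11721 none. Each gene was read from its brightest probe set with 1 symbol, and 0 columns were left out. All 12 arrays entered 1 limma fit (limma 3.58.1, R 4.3.3, eBayes with trend) with a mean per group. The inductions of each line, their difference and the lines with and without tetracycline were compared, 2-sided, with Benjamini-Hochberg adjustment over all tested probe sets and calls at 0.05. The fit was tested on simulated data. Tables and figures were made with Python 3.11.15, pandas 2.3.3 and matplotlib 3.10.9.

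The members, the other lists, the contrasts and the alternatives were chosen with earlier results of these data known. Named members were, per comparison, up to 10 called rises and falls without overlap between groups, or, where fewer than 5 were called, the 8 with the smallest p. Changes of the tested stalk proteins, RPS6 and RPL11 were given for the WT induction alone. Paralogs with their main copies, members called in opposite directions and the brightest and dimmest were also named, not each in every comparison. Other called members and probe sets were named after their values were seen. Each other list was given up to 4 names, by smallest p.

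Alternatives were no filter, a filter at the 75th percentile (8.92), an offset of 16 before log2, quantile normalization, centring arrays on their median, eBayes without trend, only the groups compared, a replicate block, each array left out, the arrays numbered 3 left out, array weights, and the mean or the dimmest of a gene's probe sets.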

Additional observations from a re-analysis of the deposited data

How the results depend on the processing

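The counts of members called for the mutant induction and for the difference of inductions were 0 under all alternatives run. For the WT induction the count of 1 became 0 with no filter, with quantile normalization, with eBayes without trend, with only the arrays compared and without the arrays numbered 3. It was 2 (1 higher, 1 lower) with the mean of a gene's probe sets and 6 (1 higher, 5 lower) with the dimmest probe set, and 0 to 7 when 1 array was left out. For the lines with tetracycline the count of 18 became 8 with no filter, 10 with quantile normalization, 51 with centred arrays, 8 without trend, 10 with only the arrays compared and 5 without the arrays numbered 3, and 8 to 29 when 1 array was left out (29 without WT tetracycline replicate 1, 8 without replicate 2, 10 without replicate 3, and 9 and 8 without mutant tetracycline replicates 1 and 3). For the untreated lines the count of 7 became 4 with no filter, 4 with quantile normalization, 35 with centred arrays, 3 without trend, 2 without the arrays numbered 3 and 12 with the dimmest probe set, and 3 to 9 when 1 array was left out (3 or 4 without WT untreated replicate 1 or 2 or any mutant untreated array). The cause of these shifts was not tested. The members' median moved with quantile normalization to 0.0076 for the WT induction and 0.045 for the lines with tetracycline, and with centring to 0.44 for the lines with tetracycline and 0.34 for the untreated lines.

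Replicate numbers are not stated to pair arrays, and same-numbered arrays had correlated deviations from their group means between -0.0022 and 0.253, not all above 0.1, so the fit has no block. With a replicate block 1 member was called for the WT induction, 0 for the mutant induction and for the difference, 23 for the treated lines and 8 for the untreated lines.

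Among 118 results, 10 values called as reported or under the alternative changed sign. With the mean of a gene's probe sets RPS28 gave -1.47 for the WT induction, and RPL22 -0.063 and RPS27 -0.35 for the lines with tetracycline. With the dimmest probe set RPL22 gave -1.27, RPL31 -0.63, RPS23 -0.78, RPS27L -1.26 and RPS28 -2.99 for the WT induction, and RPL22 -1.04 and RPS27L -0.30 for the lines with tetracycline. RPL27A and RPL22L1 passed in all 24 alternatives in both comparisons of the lines, and RPL26L1 in all 24 with tetracycline. With tetracycline RPL7L1 lost the call in 11 of 24, 6 of them leaving out 1 array, RPL35A in 8 (3 of them), RPL10L in 3 of 23 (2 of them), RPS27L in 2, and RPL12, RPS12 and RPL38 in 1 each. In the untreated lines RPL7L1 and RPL38 each lost the call in 14 of 24, RPS12 in 8 and RPL26L1 in 6.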
